A study of Mus musculus and Homo sapiens with 65 samples.

Results

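The Rab GTPase genes of mouse late 2-cell embryos were taken as all genes of the expression tables whose symbol is Rab followed by a number and at most 1 letter from a to d. There were 57 such genes of 32287, and all 57 are annotated as protein-coding in GENCODE release M21. The symbol Rab1 of the tables is the gene that GENCODE names Rab1a. The 9 RNA-seq libraries, all of late 2-cell embryos, form 4 groups. Alpha-amanitin embryos gave 2 libraries, embryos that received Kdm5a and Kdm5b morpholinos together gave 2, embryos that received the matching mismatch controls gave 2, and wild-type embryos, neither injected nor treated, gave 3. Alpha-amanitin inhibits RNA polymerase II, so RNA that needs new transcription should fall relative to RNA stored in the egg. Levels are relative to the other RNA of a library, so a kept or higher level need not be a kept or higher amount. Morpholinos are synthetic oligomers that pair with an RNA and hinder its translation or splicing, and the mismatch controls differ from them at 5 bases. They carried a fluorescein tag and were injected into zygotes at 0.5 days after conception. The sources used here do not state the dose or route of alpha-amanitin, the strain, or how many embryos each library pools. The labels do not say whether libraries of a group came from separate collections of embryos, so p-values reflect only how far these libraries vary, which may in part be technical.

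Rab proteins are small GTPases that act as switches on membranes. Bound to GTP and anchored by lipid tails, a Rab recruits effectors that tether, move and fuse vesicles; exchange factors load the GTP and GTPase-activating proteins end the signal. The genes were grouped here by a role in traffic, such as endoplasmic reticulum (ER) to Golgi transport, early endosome fusion or lysosome delivery. The same Rab can act at several steps, as some named below do, so these groups are only a guide. A level of Rab mRNA does not show how much active protein is present. The late 2-cell stage is when the mouse embryo first transcribes its own genome broadly while RNA inherited from the egg is cleared.

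Levels are in FPKM, a fragment number corrected for both the length of the transcript and library size, so they can be compared between genes and are relative to all other RNA of the library. Between 7935 and 7977 genes stood at 1 FPKM or more in alpha-amanitin libraries, against 10611 to 11228 in the other 7 libraries. Markers of the 2-cell stage (9 of 10 listed were found) summed to 14.2 to 16.1 FPKM with alpha-amanitin and 253 to 358 FPKM in wild type, and 9 oocyte markers to 967 to 1052 FPKM with alpha-amanitin and 495 to 627 FPKM in wild type. Cumulus markers, of which 6 of 10 stayed under 1 FPKM in every library, summed to 0.572 to 0.738 FPKM with alpha-amanitin and 12.1 to 15.3 FPKM in wild type. Lhcgr and Ptx3, at 0 in both alpha-amanitin libraries, were among these 6. Amhr2, Cyp19a1, Star and Tnfaip6 each reached 1 FPKM or more in a library. Oviduct markers, of which 3 of 6 stayed under 1 FPKM, summed to 0.931 to 6.24 FPKM with alpha-amanitin and 41.1 to 43.8 FPKM in wild type. The other 3 were Cd24a, Krt18 and Ovgp1. For blood markers the sums were 1.58 to 6.39 FPKM with alpha-amanitin and 2.06 to 7.32 FPKM in wild type. Hbb-bs and Hbb-bt were at 0 in every library, while Cd68, Hba-a1 and Hba-a2 each reached 1 FPKM or more in a library. Sperm markers summed to 0.0084 to 3.32 FPKM with alpha-amanitin and 0.0575 to 5.96 FPKM in wild type. Prm1 was at 0 in every library, while Odf1, Smcp and Tnp1 each reached 1 FPKM or more in a library. The part of the 2-cell, cumulus and oviduct markers that moved with alpha-amanitin in the Rab results was not tested, and fewer cells of a type and less RNA per cell cannot be told apart in these pooled embryos. Kdm5a stood at 19.5 and 15.3 FPKM in Kdm5a+b libraries against 12.8 and 9.44 FPKM in mismatch controls, and Kdm5b at 38.1 and 27.6 FPKM against 55.3 and 39.6 FPKM. A morpholino need not lower its target mRNA, so the labels are not checked by these levels.

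Rab mRNA was abundant in every group, and a few genes held much of it. The 57 genes summed to 932 and 1014 FPKM in alpha-amanitin libraries, 824 and 814 FPKM with the Kdm5a+b morpholinos, 792 and 814 FPKM with the mismatch controls and 864, 831 and 846 FPKM in wild type. The alpha-amanitin sums were above those of all other libraries. In wild type the 5 genes of highest mean were Rab14, Rab1, Rab6a, Rab10 and Rab7, and they held 41.3% of the summed FPKM. With alpha-amanitin the 5 highest were Rab7, Rab14, Rab10, Rab2a and Rab5c, and they held 56.4%. A mean of 10 FPKM or more was reached by 17 genes with alpha-amanitin, 25 with the Kdm5a+b morpholinos, 24 with the mismatch controls and 24 in wild type.

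**Figure D1:**
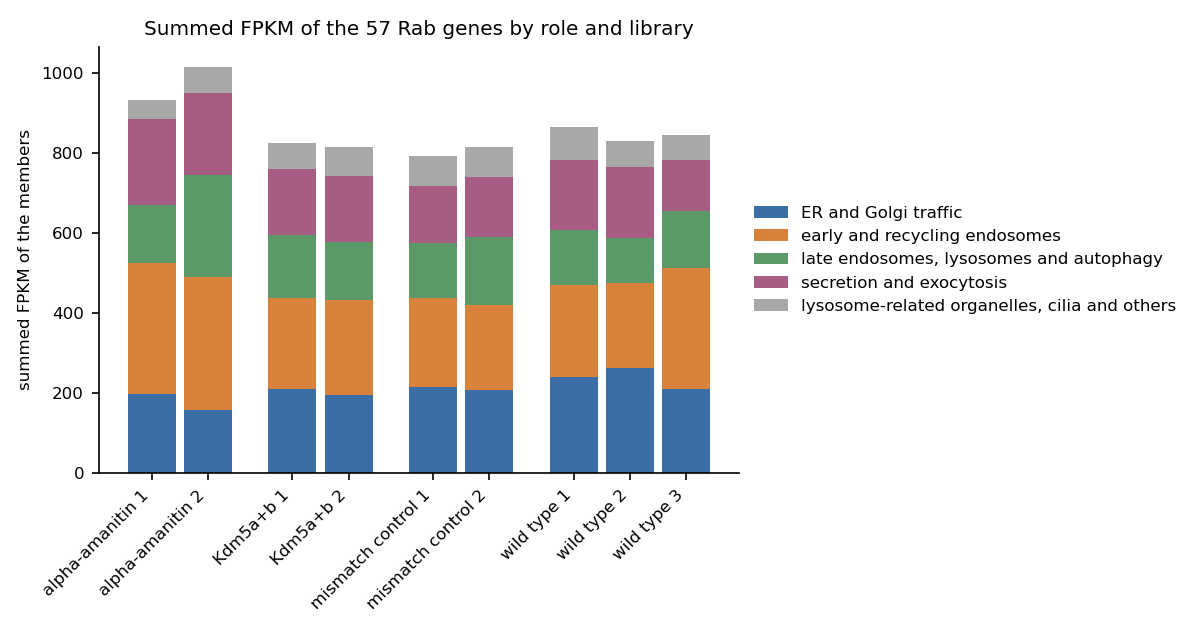
Summed FPKM of the 57 Rab genes in each of the 9 libraries, with the bar divided by the role of the genes and numbers after the group names giving the library. The alpha-amanitin bars reach 932 and 1014 FPKM and the wild-type bars 831 to 864 FPKM, and the early and recycling endosome segment is 326 and 333 FPKM with alpha-amanitin against 214 to 304 FPKM in wild type.

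Alpha-amanitin against wild type asks which Rab transcripts of the late 2-cell embryo depend on new transcription. Of the 57 genes, 43 reached 1 FPKM in 2 or more of the 9 libraries and were tested. Of these, 12 were lower and 5 were higher with alpha-amanitin (limma on log2(FPKM + 1), Benjamini-Hochberg adjusted p under 0.05 over 13137 genes). The lower genes were 27.9% of the tested members, near the background of 25.1% of all tested genes, and the higher genes were 11.6%, against a background of 4.31%. The genes that fell were Rab1, Rab2b, Rab33b and Rab43 of ER and Golgi traffic, Rab5a of early endosomes, Rab9, Rab24, Rab29 and Rab39 of late endosomes, lysosomes and autophagy, and Rab20, Rab34 and Rab40c. The genes that rose were Rab5c and Rab21 of the endocytic pathway, Rab7 of late endosomes, Rab10 of exocytosis and Rab38 of lysosome-related organelles. The median difference in log2(FPKM + 1) was -0.16 over the 43 genes and -0.56 over all genes tested. After quantile normalization, which gives all libraries 1 distribution, the median over all genes was 0.17 and that of the members 0.29, and the calls became 6 lower and 10 higher, beside 13.7% lower and 13.1% higher over all genes in that fit. The balance of lower and higher calls thus depends on the scaling, among members and among all genes. The 8 calls that stayed in all 17 alternatives were Rab1, Rab5a, Rab20, Rab24, Rab39 and Rab43, which were lower, and Rab5c and Rab7, which were higher. The filter favours genes that are high in some group: 13 of the 43 tested genes reached 1 FPKM only outside the alpha-amanitin libraries, among them 8 of the 12 lower genes.

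**Figure D2:**
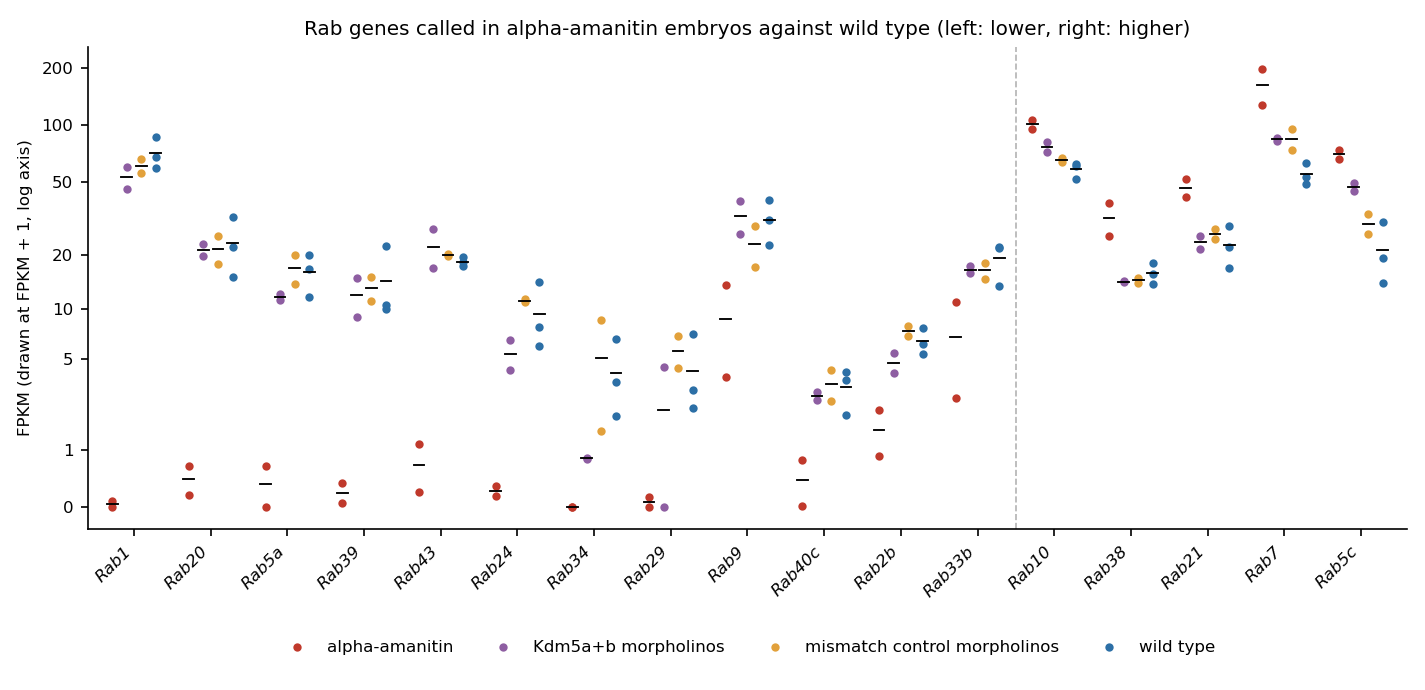
FPKM of the 17 Rab genes called in alpha-amanitin embryos against wild type, drawn at FPKM + 1 on a log axis; points are libraries, coloured by group, and bars are group means. Rab1 lies at 0.0761 and 0 FPKM with alpha-amanitin against 59.0 to 86.3 FPKM in wild type, and Rab7 at 128 and 198 FPKM against 48.3 to 63.3 FPKM.

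The start regions of 4 genes that kept their call in all 17 alternatives are shown, a selection of Rab1 and Rab5a, which fell, and of Rab5c and Rab7, which rose. They are RefSeq sequences of build GRCm38.p6, from 250 bases before to 50 bases after the annotated start, read 5′ to 3′ on the gene's strand, with chr11:20201162-20201461 (+) for Rab1, chr17:53478984-53479283 (+) for Rab5a, chr11:100738166-100738465 (-) for Rab5c and chr6:88045221-88045520 (-) for Rab7. Capitals mark matches on either strand (a match to the opposite strand shows as the reverse complement) to the GC box GGGCGG, the CCAAT box CCAAT and the TATA box TATAAA, none of which overlap here.
Rab1: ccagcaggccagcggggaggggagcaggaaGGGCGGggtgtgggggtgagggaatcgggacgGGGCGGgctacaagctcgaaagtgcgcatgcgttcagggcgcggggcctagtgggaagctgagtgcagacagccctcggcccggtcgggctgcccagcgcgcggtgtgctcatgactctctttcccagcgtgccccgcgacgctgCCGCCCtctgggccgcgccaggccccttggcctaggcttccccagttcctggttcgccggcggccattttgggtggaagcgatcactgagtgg
Rab5a: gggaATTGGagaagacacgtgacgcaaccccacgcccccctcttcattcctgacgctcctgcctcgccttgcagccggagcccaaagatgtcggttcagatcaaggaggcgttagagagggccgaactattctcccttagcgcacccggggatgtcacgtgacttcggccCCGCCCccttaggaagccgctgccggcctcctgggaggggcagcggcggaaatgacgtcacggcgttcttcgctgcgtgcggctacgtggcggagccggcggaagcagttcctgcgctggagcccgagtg
Rab5c: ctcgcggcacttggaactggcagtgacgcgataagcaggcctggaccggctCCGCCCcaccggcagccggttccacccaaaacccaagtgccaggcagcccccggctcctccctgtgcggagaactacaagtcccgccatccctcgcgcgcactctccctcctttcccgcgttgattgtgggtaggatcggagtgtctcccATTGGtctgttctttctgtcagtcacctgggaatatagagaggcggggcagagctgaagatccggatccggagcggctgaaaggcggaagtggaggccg
Rab7: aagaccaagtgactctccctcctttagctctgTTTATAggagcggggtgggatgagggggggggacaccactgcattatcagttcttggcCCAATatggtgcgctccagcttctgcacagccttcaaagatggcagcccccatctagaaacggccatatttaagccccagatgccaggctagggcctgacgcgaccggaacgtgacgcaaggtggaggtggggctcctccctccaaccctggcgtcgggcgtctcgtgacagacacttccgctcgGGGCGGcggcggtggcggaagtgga
A promoter was found for 48 of the 57 genes. The GC box was in 8 of 12 promoters of lower genes, 4 of 4 of higher genes and 16 of 22 of genes not called, against 35.9% of 27025 mouse promoters of the same length. The CCAAT box was in 4 of 12, 3 of 4 and 12 of 22, against 37.9%, and TATAAA in 0 of 12, 1 of 4 and 2 of 22, against 14.2%. A CpG ratio, observed over that from base composition, of 0.6 or more was found in 10 of 12, 4 of 4 and 17 of 22, against 36.5%. A high CpG ratio was thus common in all 3 sets. Among 10 promoters of members not tested, 6 held the GC box and 5 had that CpG ratio. The 27025 promoters were not limited to tested genes, while the 3 sets were. A share above theirs therefore need not be a trait of Rab genes. A start used in the 2-cell embryo may differ from the annotated one, and a match of letters shows no binding.

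Rabs of ER and Golgi traffic held the gene with the lowest adjusted p among the members. Of 12 genes, 10 were tested, 4 fell and none rose, beside 25.1% lower and 4.31% higher over all genes. Among the 4, Rab1 passed the filter only through other groups. Rab1 (ENSMUSG00000020149.12, mm10 chr11:20201432-20226856, plus strand), which directs vesicles between the ER and the Golgi, had 0.0761 FPKM in alpha-amanitin replicate 1 and was listed at 0 in replicate 2, against 59.0, 86.3 and 67.8 FPKM in wild type. No value of the groups overlapped, and the difference in log2(FPKM + 1) was -6.10 (SE 0.30, adjusted p = 1.52e-06). Its homologue Rab1b had 3.08 and 16.9 FPKM with alpha-amanitin and 9.87, 2.69 and 5.54 FPKM in wild type. These values overlapped, and the difference of 0.42 (95% interval -1.15 to 1.98) did not pass the test. Rab43 (mm10 chr6:87788853-87812164), a Golgi Rab, had 1.15 and 0.198 FPKM with alpha-amanitin against 18.4, 17.4 and 19.5 FPKM in wild type. Its wild-type libraries lay close together and far above both others (log2 difference -3.60, SE 0.38, adjusted p = 6.41e-05).

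Rab2b, one of a pair of Golgi Rabs, had 2.23 and 0.848 FPKM with alpha-amanitin against 7.71, 5.35 and 6.21 FPKM in wild type. The groups did not overlap and the wild-type mean was 4.17 times the alpha-amanitin mean (log2 difference -1.59, SE 0.43, adjusted p = 0.0183). The call was lost without alpha-amanitin replicate 2 (adjusted p = 0.144) and under quantile normalization (0.399). Rab2b also overlaps Tox4 on the opposite strand, which stood at 0.862 and 0.777 FPKM with alpha-amanitin against 21.5, 20.3 and 17.8 FPKM in wild type; the sources used here do not state strand use in counting, so reads of the overlap cannot be told apart. Its partner Rab2a had 82.4 and 59.7 FPKM with alpha-amanitin and 38.8, 45.4 and 42.6 FPKM in wild type. Both alpha-amanitin values were above all wild-type values, but the difference of 0.72 (SE 0.27) did not pass (adjusted p = 0.0711); it passed after quantile normalization (0.0499) and on TPM (0.0364).

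Rab33b, which acts at the Golgi and in autophagosome formation, had 2.72 and 10.9 FPKM with alpha-amanitin against 22.1, 21.9 and 13.5 FPKM in wild type. The 2 alpha-amanitin libraries differed from each other by more than the 3 wild-type libraries did on the log scale, and the call (log2 difference -1.57, SE 0.48, adjusted p = 0.0304) was lost without alpha-amanitin replicate 1 (adjusted p = 0.254), without wild-type replicate 1 (0.0743) or 2 (0.0748), and under quantile normalization (0.23). Rab6a, which moves vesicles within and back from the Golgi, had 80 and 54.6 FPKM with alpha-amanitin and 71.2, 71.9 and 46.9 FPKM in wild type. The ranges overlapped, with a difference of 0.09 (95% interval -0.56 to 0.73). Its coding sequence has a copy of 95.3% identity over 88.8% of its length at the pseudogene Gm13082, which reached 63.2 FPKM, so reads could be split between them. Rab18, an ER and lipid droplet Rab, had 16.3 and 12.9 FPKM with alpha-amanitin and 10.4, 9.83 and 5.17 FPKM in wild type, a difference of 0.76 (SE 0.41, adjusted p = 0.194) that passed only after quantile normalization (0.0344). Rab30, named after its values were seen, had 10 and 0.58 FPKM with alpha-amanitin and 0.138, 0.121 and 0.143 FPKM in wild type. A single library held most of its difference of 1.88 (SE 0.78, adjusted p = 0.0971), which passed after quantile normalization (0.0273). Rab19 was tested and not called.

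Early and recycling endosome Rabs moved in both directions, within 1 family. Of 13 genes, 10 were tested, 1 fell and 2 rose, beside 25.1% lower and 4.31% higher over all genes. The gene that fell, Rab5a, passed the filter only through other groups. The Rab5 genes encode closely related switches for fusion of early endosomes. Rab5a (ENSMUSG00000017831.7, mm10 chr17:53479234-53507671, plus strand) had 0.644 and 0.00294 FPKM with alpha-amanitin against 11.6, 20 and 16.9 FPKM in wild type. The groups were far apart, with a log2 difference of -3.71 (SE 0.41, adjusted p = 7.81e-05). Rab5c (ENSMUSG00000019173.6, mm10 chr11:100715009-100738215, minus strand) had 66.4 and 73.8 FPKM with alpha-amanitin against 30.5, 19.3 and 14.0 FPKM in wild type. Both alpha-amanitin values were more than the highest wild-type value, the ratio of means was 3.29, and the log2 difference was 1.74 (SE 0.33, adjusted p = 0.00276). Rab5b had 2.95 and 4.86 FPKM with alpha-amanitin and 5.04, 3.21 and 2.27 FPKM in wild type, with overlapping ranges and a difference of 0.14 (95% interval -0.86 to 1.14). The Rab5b coding sequence has a copy of 99.4% identity over 100% of its length at Gm13991, which reached 5.12 FPKM. Reads could therefore be split between Rab5b and this copy.

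Within the Rab5 group the makeup therefore differed. Rab5a held 0.920% and 0.00373% of the group's summed FPKM with alpha-amanitin, 18.5% and 18.3% with the Kdm5a+b morpholinos, 27.2% and 39.6% with the mismatch controls and 24.7%, 47.0% and 50.8% in wild type. Rab5c held 94.9% and 93.8% with alpha-amanitin, 74.8% and 72.4% with the Kdm5a+b morpholinos, 65.2% and 51.3% with the mismatch controls and 64.7%, 45.4% and 42.3% in wild type. The group's sum was 70.0 and 78.6 FPKM with alpha-amanitin and 47.2, 42.5 and 33.2 FPKM in wild type. The exact two-sided permutation p for alpha-amanitin against wild type was 0.2 for each share. This test takes the smaller tail and doubles it, and 0.2 is the smallest p that it can then give for 2 against 3 libraries. Coding sequences of Rab5a and Rab5c are 73.5% identical and share no run longer than 22 bases. A genomic copy with 92.7% identity to the Rab5a coding sequence lies at chr17:53702320-53702972, outside the genes of the tables.

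**Figure D3:**
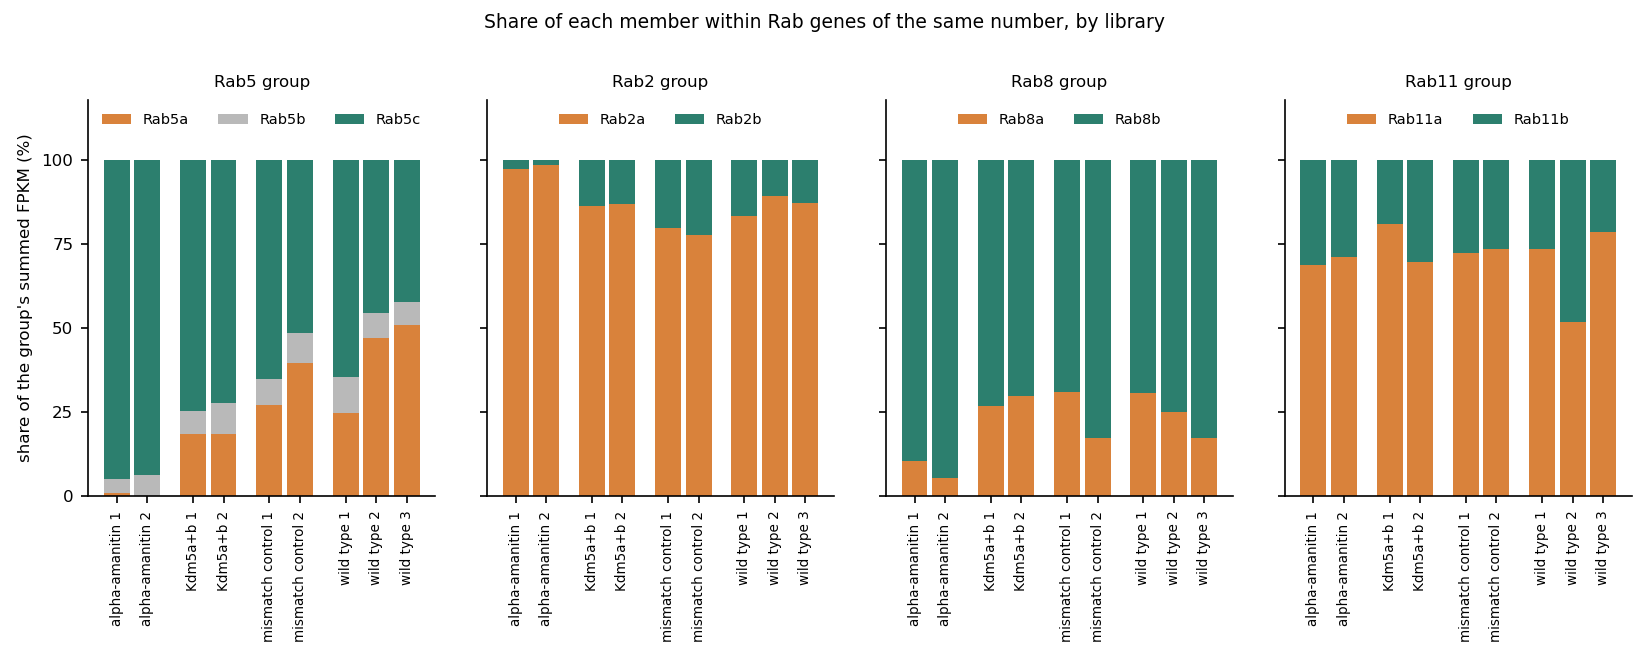
Share of each member in the summed FPKM of Rab genes of the same number, in percent, for each of the 9 libraries, with alpha-amanitin left and wild type right. Rab5a is a sliver in both alpha-amanitin libraries and 24.7% to 50.8% in wild type, while the Rab11 shares of the alpha-amanitin libraries lie inside the wild-type range.

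Shares were computed only for genes of the same number whose sum was 5 FPKM or more in every alpha-amanitin and wild-type library. This left out Rab1 with Rab1b, Rab9 with Rab9b, Rab33a with Rab33b, Rab39 with Rab39b and Rab40b with Rab40c. Each of these pairs held a gene that fell, namely Rab1, Rab9, Rab33b, Rab39 and Rab40c. Rab2b held 2.64% and 1.40% of the Rab2 sum with alpha-amanitin against 16.6%, 10.6% and 12.7% in wild type, and Rab8a held 10.5% and 5.35% of the Rab8 sum against 30.7%, 25% and 17.2%. Both pairs had non-overlapping shares, with an exact permutation p of 0.2. Rab11a held 68.9% and 71.3% of the Rab11 sum with alpha-amanitin and 73.7%, 51.9% and 78.5% in wild type (exact permutation p = 1). The Rab3 shares also overlapped (exact p = 0.4 to 1), and Rab6a and Rab27a each held at least 98.3% of their sum in every library.

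Rab21, which guides integrin endocytosis, had 51.4 and 41.5 FPKM with alpha-amanitin against 28.9, 16.9 and 22.2 FPKM in wild type. The values did not overlap and the means differed 2.05-fold (log2 difference 1.03, SE 0.30, adjusted p = 0.0280). The call was lost without either alpha-amanitin library (adjusted p = 0.143 without replicate 1, 0.0571 without replicate 2) and without wild-type replicate 2 (0.0641) or 3 (0.0594). Rab14, of traffic between the Golgi and endosomes, had 136 and 150.5 FPKM with alpha-amanitin and 92.7, 93.4 and 122 FPKM in wild type. It was the most abundant Rab transcript of wild type by mean, and its difference of 0.49 (SE 0.22, adjusted p = 0.127) passed on TPM alone (0.0435).

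The recycling endosome gene Rab11a had 33.5 and 25 FPKM with alpha-amanitin and 29.8, 19 and 60.2 FPKM in wild type, and Rab11b had 15.1 and 10.1 FPKM against 10.6, 17.6 and 16.5 FPKM. Both overlapped, with differences of -0.16 (95% interval -1.10 to 0.77) and -0.22 (-1.09 to 0.64). The Rab11b coding sequence has a genomic copy of 99.8% identity. Rab35, of fast recycling to the plasma membrane, had 9.21 and 5.57 FPKM with alpha-amanitin and 11.9, 18.1 and 29.0 FPKM in wild type. The values did not overlap, and the difference of -1.25 (SE 0.43) narrowly missed the threshold (adjusted p = 0.0501); it passed without wild-type replicate 1 (0.0241). Rab4b and Rab22a were tested and not called, and Rab4b ranged from 0 to 15.8 FPKM among wild-type libraries.

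Of 8 Rabs of late endosomes, lysosomes and autophagy, 6 were tested, 4 fell and 1 rose, beside 25.1% lower and 4.31% higher over all genes. Among the 4, Rab24, Rab29 and Rab39 passed the filter only through other groups. Rab7 (ENSMUSG00000079477.4, mm10 chr6:87999106-88045270, minus strand), which takes late endosomes to lysosomes, had 128 and 198 FPKM with alpha-amanitin against 63.3, 48.3 and 52.7 FPKM in wild type. Each alpha-amanitin value was above every other library, the ratio of means was 2.98 and the log2 difference was 1.53 (SE 0.26, adjusted p = 0.00133). A genomic copy of 98.4% identity to its coding sequence lies at chr9:54824660-54825283, and the antisense gene Gm5577 overlaps it with 5.40 and 6.94 FPKM with alpha-amanitin and 4.11, 6.84 and 7.74 FPKM in wild type.

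Rab39 (mm10 chr9:53684110-53706232), a lysosome and autophagy Rab, had 0.334 and 0.0491 FPKM with alpha-amanitin against 10, 10.6 and 22.6 FPKM in wild type. Rab24 (mm10 chr13:55319223-55321980), also of autophagy, had 0.148 and 0.298 FPKM against 7.83, 14.2 and 6 FPKM. In both genes the groups were far apart, with log2 differences of -3.61 (SE 0.46, adjusted p = 0.000215) and -3.00 (SE 0.46, adjusted p = 0.000677). Rab9, which returns cargo from late endosomes to the Golgi, had 3.83 and 13.7 FPKM with alpha-amanitin against 31.0, 22.7 and 39.9 FPKM in wild type. Its groups did not overlap (log2 difference -1.90, SE 0.48, adjusted p = 0.0133), but the call was lost without alpha-amanitin replicate 1 (adjusted p = 0.118) and under quantile normalization (0.0807).

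Rab29, a Golgi and lysosome Rab that recruits the kinase LRRK2, had 0.130 FPKM with alpha-amanitin in replicate 1 and was listed at 0 in replicate 2, against 2.32, 3.14 and 7.06 FPKM in wild type. Its groups did not overlap either, but its call (log2 difference -2.17, SE 0.70, adjusted p = 0.0397) was lost without any 1 of 6 libraries: adjusted p was 0.114 and 0.149 without alpha-amanitin replicates 1 and 2, 0.0538 and 0.054 without mismatch control replicates 1 and 2, and 0.064 and 0.11 without wild-type replicates 2 and 3. It was also lost under quantile normalization (0.143). Rab12 had 12.1 and 40.4 FPKM with alpha-amanitin and 24.0, 13.7 and 14.2 FPKM in wild type, which overlapped.

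Among Rabs of secretion and exocytosis, none of the 9 tested genes of 13 fell and 1 rose. Over all genes tested, 25.1% were lower and 4.31% higher. Rab10, which carries vesicles to the plasma membrane, had 95.9 and 107 FPKM with alpha-amanitin against 60.4, 62.5 and 51.5 FPKM in wild type. The groups did not overlap, with a ratio of means of 1.74 and a log2 difference of 0.79 (SE 0.22, adjusted p = 0.0203). The call was lost without alpha-amanitin replicate 1 (adjusted p = 0.0559) or 2 (0.113) and without wild-type replicate 3 (0.0603). The antisense gene Rab10os overlaps it and stood at 6.29 and 7.46 FPKM with alpha-amanitin against 7.01, 9.22 and 9.29 FPKM in wild type.

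Rab27a, which docks secretory granules at the plasma membrane, had 30.5 and 30.3 FPKM with alpha-amanitin and 52.5, 31.3 and 23.2 FPKM in wild type. Rab3d, of regulated exocytosis, had 28.2 and 35.4 FPKM with alpha-amanitin and 36.8, 26.5 and 20 FPKM in wild type. Both overlapped, with differences of -0.14 (SE 0.39) and 0.22 (SE 0.32). Rab8b, of exocytosis and cilium growth, had 28.0 and 16.2 FPKM with alpha-amanitin and 8.04, 9.75 and 15 FPKM in wild type, a difference of 0.95 (SE 0.38, adjusted p = 0.0863). Rab3a had 9.32 and 10.5 FPKM with alpha-amanitin and 2.43, 5.00 and 5.33 FPKM in wild type, a difference of 1.10 (SE 0.53, adjusted p = 0.149). Rab8b and Rab3a did not overlap between the groups and passed only after quantile normalization (0.0179 and 0.0255). Rab3b ranged widely, at 18.1 and 4.77 FPKM with alpha-amanitin and 8.31, 19.3 and 2.44 FPKM in wild type. Rab8a, Rab13 and Rab26 were tested and not called.

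Of 11 genes of lysosome-related organelles, cilia and other roles, 8 were tested, 3 fell and 1 rose. Over all genes tested, 25.1% were lower and 4.31% higher. The 3 that fell, Rab20, Rab34 and Rab40c, passed the filter only through other groups. Rab20 (mm10 chr8:11453392-11478638), a Rab of phagosome maturation, had 0.638 and 0.162 FPKM with alpha-amanitin against 32.5, 15.1 and 22.1 FPKM in wild type. No library of the groups came near the other (log2 difference -4.07, SE 0.40, adjusted p = 4.07e-05). Rab34, a Rab of cilium formation, was listed at 0 in alpha-amanitin replicates 1 and 2, against 2.00, 6.67 and 3.56 FPKM in wild type. Its call (log2 difference -2.24, SE 0.63, adjusted p = 0.0217) was lost without alpha-amanitin replicate 1 (adjusted p = 0.0869) or 2 (0.0909), without wild-type replicate 2 (0.0603) and under quantile normalization (0.0532).

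Rab40c, whose protein joins a ubiquitin ligase, had 0.777 and 0.0133 FPKM with alpha-amanitin against 3.64, 2.05 and 4.13 FPKM in wild type. The groups did not overlap (log2 difference -1.64, SE 0.49, adjusted p = 0.0283), but the call was lost without alpha-amanitin replicate 2 (adjusted p = 0.2), without wild-type replicate 1 (0.0592) or 3 (0.0713) and under quantile normalization (0.372). Rab38, of melanosome formation, had 25.5 and 38.2 FPKM with alpha-amanitin against 18.2, 13.7 and 15.7 FPKM in wild type. The values did not overlap and the means differed 2.01-fold (log2 difference 0.94, SE 0.31, adjusted p = 0.0434). It was the least stable of the higher calls: adjusted p was 0.264 without alpha-amanitin replicate 2, 0.0662 and 0.066 without Kdm5a+b replicates 1 and 2, 0.0576 and 0.0582 without mismatch control replicates 1 and 2, and 0.0873 and 0.0854 without wild-type replicates 2 and 3. Rab23, a brake on Hedgehog signalling, had 11.8 and 15.8 FPKM with alpha-amanitin and 15.2, 20.1 and 10.2 FPKM in wild type, which overlapped (difference -0.10, 95% interval -0.93 to 0.74). Rab28, Rab32 and Rab42 were tested and not called.

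The 14 genes that were not tested were Rab3c, Rab6b, Rab9b, Rab15, Rab17, Rab25, Rab27b, Rab31, Rab33a, Rab36, Rab37, Rab39b, Rab40b and Rab44. Each reached 1 FPKM in at most 1 library. The highest single values were 15.7 FPKM for Rab15 and 2.90 FPKM for Rab36, both in alpha-amanitin replicate 2, and 2.93 FPKM for Rab44 in wild-type replicate 3. The other 11 had a highest value of 0.00102 to 1.26 FPKM.

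**Figure D4:**
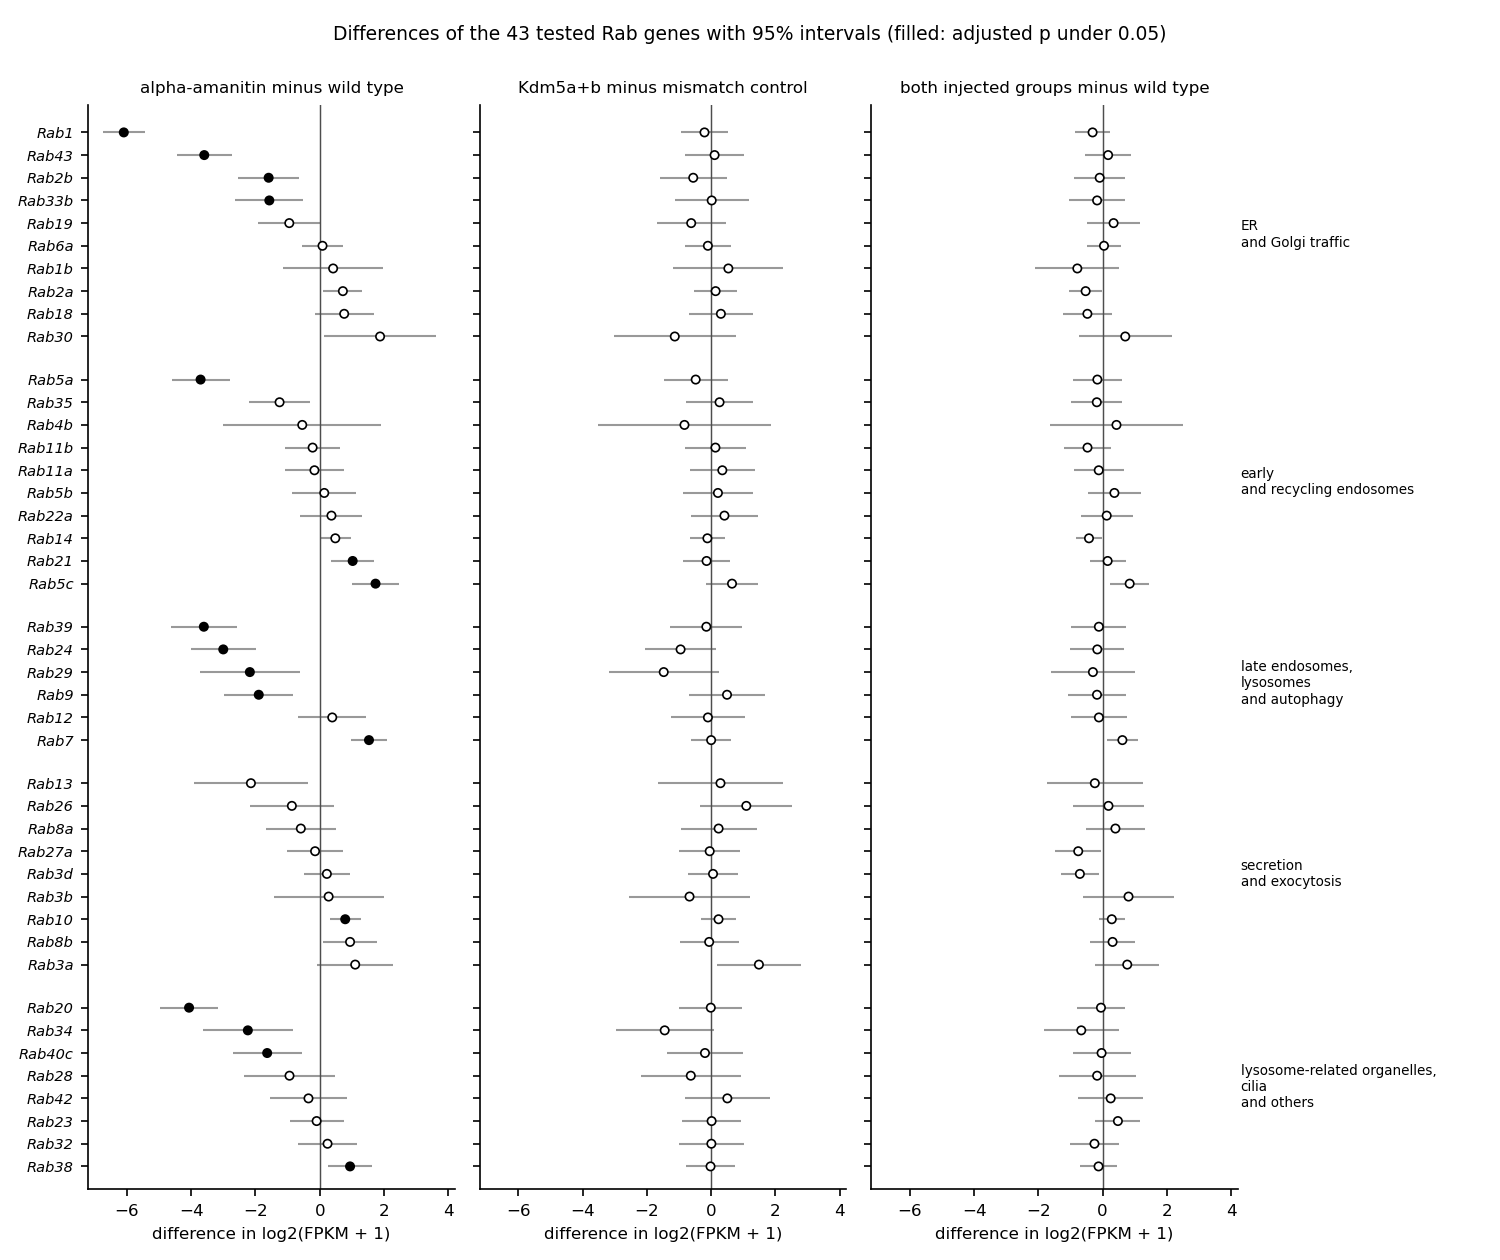
Differences in log2(FPKM + 1) of the 43 tested Rab genes in 3 comparisons, grouped by role; lines are 95% intervals and filled points passed at an adjusted p under 0.05. The left panel spans -6.10 to 1.88 with 17 filled points, and the middle panel (-1.48 to 1.49) and the right panel (-0.79 to 0.84) have none.

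The 3′ ends of the transcripts were read because stored egg RNAs can carry a cytoplasmic polyadenylation element, the letters TTTTAT or TTTTAAT near the end, which proteins of the egg use to lengthen the poly(A) tail. In the last 150 bases of the annotated GENCODE transcript, on the transcript strand, an element was present in 5 of 12 lower genes, 0 of 5 higher genes and 7 of 25 genes not called, against 25.7% of 10189 tested genes with a 3′ untranslated region of at least that length. The polyadenylation signal AATAAA was present in 4 of 12, 3 of 5 and 19 of 25, against 68.2%. For 4 of the lower genes 1 element each is shown in capitals (the Rab9 window holds 2, and Rab20, the other lower gene with the letters, is not shown), on mm10, at chr17:53507623-53507652 (+) for Rab5a, chr14:52261797-52261826 (-) for Rab2b, chr9:53684110-53684139 (-) for Rab39 and chrX:166457321-166457350 (-) for Rab9.
Rab5a: ccggtgtttagTTTTATattgaggtgctca
Rab2b: aattttctaatTTTTATtgttaatgaccgt
Rab39: tagatttgtgtatTTTTAATagtacccatg
Rab9: tatgtgtatatTTTTATgtaattagcattg
The ends used in the 2-cell embryo may differ from the annotated ones, and the absence of these letters in Rab5c, Rab7, Rab10, Rab21 and Rab38 says only that this window does not hold them.

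The Kdm5a+b morpholinos against the mismatch controls ask whether morpholinos directed at 2 histone H3 lysine 4 demethylases alter Rab transcripts, with injection matched. These libraries do not show whether either protein was lost. None of the 43 tested genes passed limma's test in either direction, beside a background of 0% of 13137 genes; 1 member and 414 genes had an unadjusted p under 0.05. The differences ran from -1.48 to 1.49, with a median of -0.00086 over the members and 0.0031 over all genes. Their 95% intervals had a median half-width of 1.05, and 13 of 43 lay wholly between -1 and 1, so for most members the interval reaches past a 2-fold difference. Rab3a, of regulated exocytosis, had 7.13 and 24.7 FPKM with the Kdm5a+b morpholinos against 5.27 and 3.24 FPKM with the mismatch controls. The groups did not overlap, but 1 library held most of the difference of 1.49 (95% interval 0.19 to 2.78, adjusted p = 1).

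Rab5c had 49.2 and 44.6 FPKM with the Kdm5a+b morpholinos and 33.3 and 26.1 FPKM with the mismatch controls, which did not overlap (difference 0.65, 95% interval -0.15 to 1.45, adjusted p = 1). Rab5a had 12.1 and 11.3 FPKM with the Kdm5a+b morpholinos and 13.9 and 20.1 FPKM with the mismatch controls (difference -0.48, 95% interval -1.47 to 0.51). Rab24 had 4.23 and 6.53 FPKM against 11.4 and 10.9 FPKM (difference -0.95, 95% interval -2.06 to 0.15, adjusted p = 1). For the most abundant members the values lay closer. Rab7 had 85.7 and 82.2 FPKM with the Kdm5a+b morpholinos and 73.7 and 95.6 FPKM with the mismatch controls, and Rab1 had 60 and 45.6 FPKM against 55.4 and 66.2 FPKM. Both overlapped.

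Both injected groups against wild type, a comparison in which injection and morpholino cannot be told apart, gave no call either. No member passed limma's test, beside a background of 0% of 13137 genes in each direction; 6 members and 903 genes had an unadjusted p under 0.05, and the smallest adjusted p of a member was 0.633. This comparison uses the same wild-type libraries as the one with alpha-amanitin, so values for the members are given side by side. Rab5c had 49.2, 44.6, 33.3 and 26.1 FPKM in injected embryos against 30.5, 19.3 and 14.0 FPKM in wild type (difference 0.84, 95% interval 0.23 to 1.46), beside 66.4 and 73.8 FPKM with alpha-amanitin. Rab7 had 85.7, 82.2, 73.7 and 95.6 FPKM in injected embryos against 63.3, 48.3 and 52.7 FPKM in wild type (difference 0.62, 95% interval 0.14 to 1.10), beside 128 and 198 FPKM with alpha-amanitin. The injected values of Rab7 lay between those of the other groups without overlap, while those of Rab5c overlapped wild type.

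The other 4 members with an unadjusted p under 0.05 were lower in injected embryos. Rab14 had 68.2, 77.4, 74.9 and 83.1 FPKM in injected embryos against 92.7, 93.4 and 122 FPKM in wild type, without overlap (difference -0.42, 95% interval -0.83 to -0.01). Rab2a had 34.2, 27, 31.4 and 24.1 FPKM against 38.8, 45.4 and 42.6 FPKM, and Rab3d had 16.8, 16.1, 15.4 and 16.1 FPKM against 36.8, 26.5 and 20 FPKM, both without overlap. Rab27a overlapped, at 26.2, 14.0, 21.4 and 18.4 FPKM against 52.5, 31.3 and 23.2 FPKM. None of these 4 passed after adjustment, at 0.657 for Rab3d and 0.716 for each of the others.

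Genes whose proteins load, unload and read Rabs were taken from 5 lists. With alpha-amanitin, 4 of 10 tested genes of prenylation and membrane recycling fell and 0 rose; 4 of 30 exchange factors fell and 2 rose; 2 of 14 subunits of TRAPP, a tethering complex that is the exchange factor of Rab1, fell and 0 rose; 4 of 31 GTPase-activating proteins fell and 1 rose; and 11 of 53 effectors fell and 6 rose. These stand beside the backgrounds of 25.1% lower and 4.31% higher. The medians were -1.02, 0.15, -0.52, 0.17 and -0.25 in that order. After quantile normalization the lower and higher calls were 2 and 0, 2 and 5, 1 and 2, 2 and 10, and 3 and 15, beside 13.7% lower and 13.1% higher over all genes in that fit. No gene of the 5 lists passed in the other comparisons.

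Partners of endosome Rabs were among those that fell. The genes named were picked for the largest differences and do not stand for their lists. In those lists 4 of 30 exchange factors fell and 2 rose, and 11 of 53 effectors fell and 6 rose. Rabgef1, the Rab5 exchange factor also called Rabex-5, had 0.118 and 0.00783 FPKM with alpha-amanitin against 25.6, 22.9 and 18.6 FPKM in wild type (log2 difference -4.45, SE 0.49, adjusted p = 7.31e-05). Zfyve20, the Rab4 and Rab5 effector also called rabenosyn, had 5.26 and 1.97 FPKM against 30.9, 43.6 and 43.5 FPKM (-3.21, SE 0.41, adjusted p = 0.000222). Mon1a, a subunit of the Rab7 exchange factor, had 0.705 and 0.261 FPKM against 12.4, 16.4 and 8.50 FPKM (-3.15, SE 0.42, adjusted p = 0.000268). In these genes no alpha-amanitin value came near a wild-type value, but the naming rule admitted only genes whose groups did not overlap.

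For the Rab1 pathway, Trappc4 of the TRAPP core had 2.09 and 0.168 FPKM with alpha-amanitin against 7.60, 24.0 and 30.5 FPKM in wild type (-3.31, SE 0.68, adjusted p = 0.00408), and Tbc1d20, a Rab1 GTPase-activating protein, had 4.98 and 2.05 FPKM against 10.8 to 16.4 FPKM (-1.72, SE 0.40, adjusted p = 0.00818). Chml, an escort protein for prenylation, had a listed value of 0 with alpha-amanitin in each library, against 4.28, 4.58 and 3.10 FPKM, and Icmt, which methylates prenylated ends, had 0.0131 and 2.73 FPKM against 8.52, 10.3 and 12.0 FPKM (adjusted p = 0.0127 and 0.00470). Among the partners that rose, the Rab3 and Rab27 effector Rph3a had 69.6 and 104 FPKM with alpha-amanitin against 32.7, 27.9 and 25.8 FPKM (1.54, SE 0.34, adjusted p = 0.00645), and the Rab27 effector Sytl4 had 22.9 and 25.5 FPKM against 9.12, 15.7 and 4.91 FPKM (1.33, SE 0.43, adjusted p = 0.0409). Dennd1a, a Rab35 exchange factor, had 141 and 45.2 FPKM against 26.7, 28.6 and 18.3 FPKM (1.69, SE 0.46, adjusted p = 0.0180). The groups of these 7 genes did not overlap, which the naming rule required, so these genes do not stand for their lists. After quantile normalization the calls of Tbc1d20 (adjusted p = 0.172) and Icmt (0.0534) were lost, as were those of Trappc8 (0.358), Dennd2c (0.13) and Rilpl2 (0.0955). Partner genes were not refitted without single libraries. The other partners that the naming rule picked were Arl6ip5, Dennd2c, Trappc8, Tbc1d23, Tbc1d9, Rilpl2 and Vps29, which fell, and Rab3il1, Tbc1d9b and Ehbp1, which rose.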

How the data were processed

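Of 65 samples, the 9 mouse RNA-seq libraries with processed tables were analysed. The authors deposited FPKM per gene with a lower and an upper bound, a table for each library with Cufflinks column names, per the file headers; the submitters' processing notes name Cufflinks, BWA, Picard, Trimmomatic and SAMtools without roles, and build mm10. The sources used here do not state annotation or strand settings. Read counts are not part of the tables, so depth is unknown. The bounds gave a median half-width of 7.03% and 8.58% of the FPKM with alpha-amanitin, 6.36% to 8.22% in injected and 10.3% to 10.9% in wild-type libraries, over members at 10 FPKM or more. Those members differ between libraries. Over 1 common set of 7494 genes the median half-width was widest with alpha-amanitin, at 21.5% and 24.4%. It was 11.9% to 14.8% in injected and 18.7% to 19.4% in wild-type libraries.

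For 13137 genes, log2(FPKM + 1) values were fitted with limma 3.58.1 (R 4.3.3). These were the genes at 1 FPKM or more in at least 2 libraries. The fit had group as the only term, all 9 libraries in 1 fit (5 residual degrees of freedom), eBayes with a trend and two-sided Benjamini-Hochberg adjustment over all genes, and was tested on simulated data. Differences on this scale understate changes of low genes. Alternatives were a pseudocount of 0.1, no filter, TPM, quantile normalization, only the groups compared, a replicate block, no trend, library weights and leaving out each library. Named are members called or with a group mean of 10 FPKM or more, and up to 3 called partners per list and direction with the largest differences whose groups did not overlap. Members and lists were chosen with earlier results of these data known. Same-number shares used families of 5 FPKM or more and an exact permutation test (SciPy 1.17.1). Genomic copies (BLAST+ 2.17.0) are hits of 90% identity or more over 80% of the coding sequence. Promoters are from RefSeq, transcripts from GENCODE M21.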

Additional observations from a re-analysis of the deposited data

How the results depend on the processing

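With alpha-amanitin, 12 members were lower and 5 higher, beside 25.1% and 4.31% of all genes. The counts became 7 lower and 6 higher with no filter (10.2% and 1.67% of all genes), 6 lower and 10 higher after quantile normalization (13.7% and 13.1%), 8 lower and 3 higher with only the groups compared (19.8% and 2.58%), 12 lower and 2 higher without the eBayes trend (25.4% and 3.27%), and 8 lower and 2 higher with the replicate block (20.9% and 2.82%). The cause was not tested. Leaving out 1 library gave 8 to 12 lower and 2 to 5 higher members, beside 18.6% to 24.7% and 2.23% to 4.01% of all genes. Of 17 called members, 8 kept their call in all 17 alternatives. Calls were also lost with no filter (Rab9, Rab29, Rab33b, Rab34, Rab40c) and with only the groups compared (Rab2b, Rab9, Rab21, Rab33b, Rab38, Rab40c). The replicate block lost the calls of Rab9, Rab10, Rab21, Rab29, Rab34, Rab38 and Rab40c. The fit without the eBayes trend lost those of Rab10, Rab21 and Rab38, and library weights lost those of Rab29 and Rab38. In the other comparisons every alternative, the replicate block included, gave 0 called members (0 in each direction, 0 to 0 when 1 library was left out). No member's called difference changed sign. Libraries of the same number did not deviate together from their group means (correlations within 0.0477 of 0). In groups of 2 libraries the 2 deviations mirror each other, so this check holds few independent comparisons. It cannot show whether libraries of the same number were collected together. Over the 31 named members, 460 of 527 values kept their side of the threshold with alpha-amanitin, 60 no longer passed and 7 newly passed. A 0 in these tables can be a failed estimate, though no member's estimate was flagged as failed in any of the 9 libraries. The 2 or 3 libraries per group limit the precision.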
